A study of Mus musculus with 3 samples.

Results

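Phosphofructokinase and fructose bisphosphatase run opposite steps of the same point in glucose metabolism, and the PFKFB enzymes make and remove the signal that sets the balance between them. Rows were taken by gene symbol: the phosphofructokinase subunit genes Pfkm, Pfkl and Pfkp, the bifunctional enzyme genes Pfkfb1, Pfkfb2, Pfkfb3 and Pfkfb4, and the fructose bisphosphatase genes Fbp1 and Fbp2. All 9 symbols were found, each on 1 of the 24481 gene rows. Messenger RNA came from the skeletal muscle of outbred ICR mice at postnatal day 42. The groups were controls, exercised controls (below, exercise control) and exercised mice given a treatment labelled SQH (below, exercise plus SQH), in a study whose title names leaf extracts of Sasa quelpaertensis, a dwarf bamboo. Each group was 1 library. Which muscle was taken, how the mice were exercised, how much SQH was given and how many animals a library holds are not in the labels. Without replicates, differences carry no biological error and no p-value is given.

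Phosphofructokinase adds a phosphate to fructose 6-phosphate and commits sugar to glycolysis. Fructose bisphosphatase removes that phosphate again. The PFKFB proteins carry a kinase and a phosphatase in a single chain and make or remove fructose 2,6-bisphosphate, which activates phosphofructokinase and inhibits fructose bisphosphatase. Muscle phosphofructokinase is built mainly from the PFKM subunit, and muscle fructose bisphosphatase is the FBP2 isoform, while FBP1 is the isoform of liver and kidney.

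Levels are the deposited log2 values. Their linear form rises by a different step in each library, so they are scaled values and not raw counts. The libraries were made by 3' end sequencing, in which a transcript gives reads only near its poly(A) tail. The read number therefore does not grow with transcript length, and no division by length is needed to compare genes. How fully the reads of each gene were recovered is not known. Gapdh, a glycolysis gene, stood at 9.35 in the control, below Pfkm at 11.65, and the enolase gene Eno1 was listed at 0 in every library. Shares, ratios and orders between genes are therefore those of deposited levels, and recovery was not tested. Taking 1 step as 1 read gives about 10780000 reads for the control, 8120000 for the exercise control and 12390000 for exercise plus SQH. Read numbers of single genes below are approximate and come from the same steps. The ± beside a difference is the standard error of counting those reads, and intervals are 95% Poisson intervals for a gene or 95% Wilson intervals for a share. Both cover counting error only, not animals or library preparation. Fast-fibre contractile genes were present in every library (14 of 14), as muscle should show. Triplets of values are given in this library order throughout. The slow-fibre markers summed to a linear level of 551000, 46800 and 435000, and the nerve and Schwann cell markers to 1210, 4310 and 1310, so the exercise control library stood apart on both lists.

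Pfkm made up nearly all of the summed level of the phosphofructokinase genes. The control stood at 11.65, the exercise control at 12.61 and exercise plus SQH at 12.04, or about 3427, 5259 and 5482 reads. The exercise control was the highest library and the control the lowest. Among all 24481 rows Pfkm held position 386, 157 and 267. Pfkp, the subunit gene named for platelets, had levels of 6.27, 7.39 and 6.26 (82, 141 and 100 reads). The exercise control stood above the other two, whose Pfkp values were almost equal. Pfkl, the liver-type subunit gene, was low everywhere, with levels of 4.66, 4.90 and 4.83 and only 27, 25 and 37 reads. Its counting intervals were 17.8 to 39.3, 16.2 to 36.9 and 26.1 to 51.0 reads, in libraries of unlike depth. The 95% counting interval of each Pfkl difference included 0, which leaves no order between the libraries. On the log2 scale it was -0.55 to 1.02 in the exercise control against the control. In exercise plus SQH it was -0.8 to 0.66 against the exercise control and -0.55 to 0.88 against the control. Pfkm accounted for 96.9% of the summed linear level of the 3 subunit genes in the control (interval 96.3% to 97.4%), 96.9% in the exercise control (96.4% to 97.4%) and 97.6% in exercise plus SQH (97.1% to 97.9%). The subunit make-up therefore differed by less than 1 percentage point between libraries while the summed level ran from 3320 in the control to 6440 in the exercise control.

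**Figure D1:**
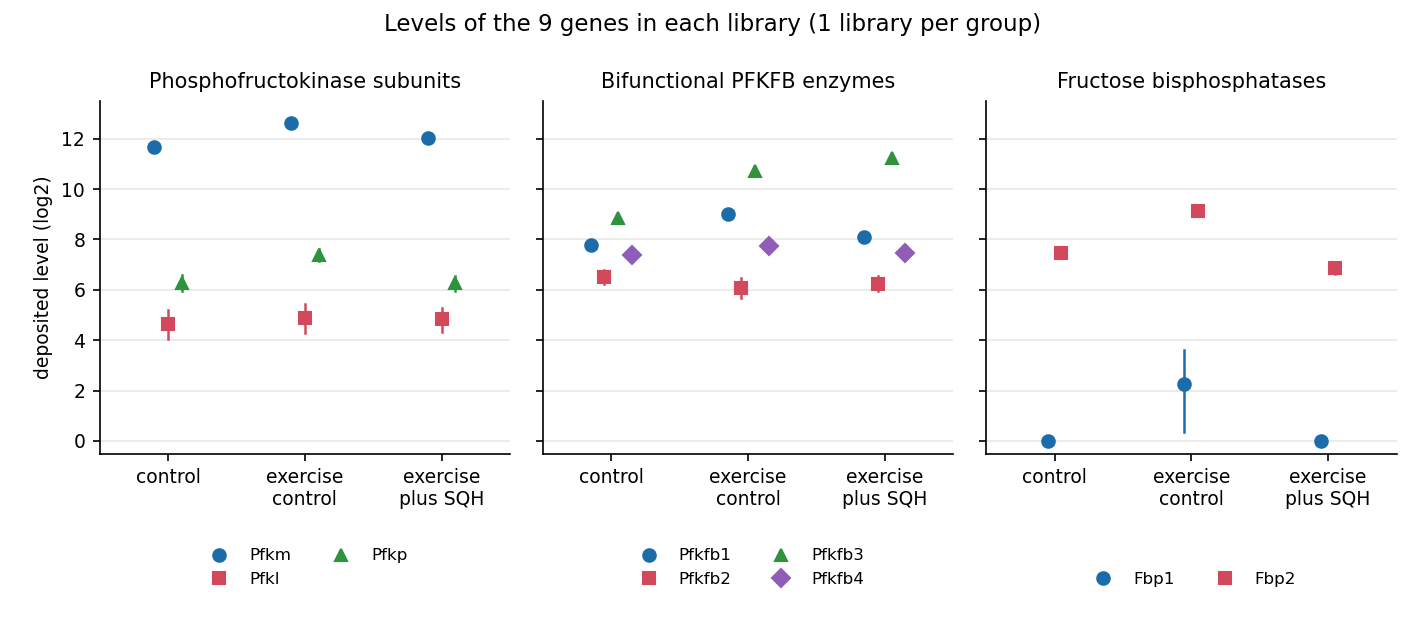
Deposited log2 level (y axis) of each of the 9 genes in the 3 libraries (x axis), 1 panel per family; each symbol is 1 library and vertical lines are 95% Poisson counting intervals, drawn for values above 0. Pfkm is the highest gene in every library, Pfkfb3 runs from 8.84 to 11.24, and Fbp2 is highest in the exercise control at 9.11.

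Of the PFKFB genes, Pfkfb3 was the most abundant in every library and differed most between them. PFKFB3 is the isozyme with the strongest kinase relative to phosphatase activity. Its gene stood at 8.84 in the control, at 10.73 with exercise and at 11.24 in exercise plus SQH, from about 488, 1434 and 3166 reads. Both exercise libraries lay far above the control, and exercise plus SQH was the highest. Pfkfb1, which encodes the isozyme of liver and skeletal muscle, had levels of 7.78, 9.01 and 8.10 (234, 433 and 357 reads), with the exercise control highest and the other two closer together. Pfkfb4, first described in testis, was nearly level at 7.40, 7.73 and 7.45 (180, 179 and 228 reads). Pfkfb2, the isozyme of heart, had levels of 6.52, 6.08 and 6.25 (98, 57 and 99 reads) and was the only PFKFB gene with its lowest value in the exercise control. No Pfkfb2 difference between libraries exceeded 0.44 on the log2 scale, and the 95% counting interval of each included 0. Among the 9 genes Pfkm came highest and Pfkfb3 next in all 3 libraries. Below them the order changed. In the control, Pfkfb1, Fbp2 and Pfkfb4 had overlapping neighbouring intervals, followed by Pfkfb2 and Pfkp, which overlapped too. The exercise control had Fbp2 and Pfkfb1 together next, then Pfkfb4 and Pfkp together, then Pfkfb2. In exercise plus SQH the order was Pfkfb1, Pfkfb4 and Fbp2, with intervals apart, then Pfkp and Pfkfb2 together. Pfkl and Fbp1 came last in every library.

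Fbp2, the muscle isoform gene, had levels of 7.48, 9.11 and 6.87, with about 190, 465 and 153 reads. The exercise control was highest by a wide margin and exercise plus SQH lowest. Fbp1 was listed at 0 in the control and in exercise plus SQH and at 2.26 in the exercise control, where it had about 4 reads (interval 1.09 to 10.2). A listed 0 stands for a linear value of 1 or less, which is no read or 1 read in those libraries. No fold was computed for Fbp1. Eno1, an enolase gene that nearly every cell uses, was also listed at 0 in all 3 libraries, so a listed 0 does not by itself show that a gene is silent.

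The sequences before the starts of Pfkfb3, Fbp2 and Pfkp were picked after the values were seen, Pfkfb3 and Fbp2 for the largest differences between libraries and Pfkp as a window with no motif match to set beside them. Pfkfb1, whose levels also lay more than 2-fold apart, has 4 windows, which are counted below and not printed. Each window holds the 250 bases upstream of a RefSeq start in GRCm38.p6, 5′ to 3′ on the gene's strand. Capitals mark matches on either strand to ACGTG (the core of the hypoxia response element), CACGTG (an E-box, which contains ACGTG on both strands), CAGCTG (an E-box of muscle regulatory factors) or TGACG (a cAMP response element half-site, written CGTCA on the other strand).
Pfkfb3, downstream start, chr2:11502091-11502340, minus strand: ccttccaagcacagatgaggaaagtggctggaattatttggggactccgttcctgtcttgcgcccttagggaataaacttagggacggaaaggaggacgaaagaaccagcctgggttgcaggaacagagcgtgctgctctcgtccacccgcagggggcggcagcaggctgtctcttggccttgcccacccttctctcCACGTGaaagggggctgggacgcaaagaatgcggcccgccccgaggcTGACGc
Fbp2, chr13:62858401-62858650, minus strand: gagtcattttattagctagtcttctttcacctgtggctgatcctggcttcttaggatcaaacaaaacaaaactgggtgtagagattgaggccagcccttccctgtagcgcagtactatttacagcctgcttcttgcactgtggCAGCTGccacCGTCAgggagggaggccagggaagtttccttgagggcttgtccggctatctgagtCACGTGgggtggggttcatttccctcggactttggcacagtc
Pfkp, chr13:6648772-6649021, minus strand: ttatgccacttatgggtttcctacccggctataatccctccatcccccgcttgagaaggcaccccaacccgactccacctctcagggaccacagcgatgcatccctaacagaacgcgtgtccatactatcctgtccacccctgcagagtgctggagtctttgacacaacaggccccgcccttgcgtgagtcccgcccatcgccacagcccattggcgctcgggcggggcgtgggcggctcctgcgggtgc
The printed Pfkfb3 window, 1 of 2, holds CACGTG from 53 to 48 bases before the start and TGACG next to the start. The Fbp2 window holds CACGTG from 42 to 37 bases before the start, with CAGCTG and the complement of TGACG further up. The Pfkp window holds none of the 4. The other Pfkfb3 window, at an upstream start, has no CACGTG. It has TGACG at 2 places and ACGTG from 60 to 56 bases before that start. ACGTG is therefore in both Pfkfb3 windows, as it is in 2 of 4 Pfkm, 2 of 3 Pfkfb2 and none of 4 Pfkfb1 windows. In all, ACGTG was in 7 of the 18 windows of the 9 genes and in 16.6% of 32817 windows of all genes. CACGTG was in 4 of the 18 and in 6.02% of all, CAGCTG in 3 and in 13.0%, and TGACG in 5 and in 17.7%. AAAGGTCA, the element bound by NR4A receptors, was in 1 (a Pfkfb1 window) and in 1.34% of all, while the palindromic glucocorticoid response element and the MEF2 motif were in none (0.00914% and 0.509% of all windows). Windows of a gene can overlap, a match is not a binding site, and 3' reads do not tell which start was used.

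What went with exercise alone was read from the exercise control against the control. Pfkfb3, Fbp2, Pfkfb1 and Pfkp were higher there, Pfkm was just short of 2-fold, and Pfkfb2 and Pfkfb4 differed by under 0.5 on the log2 scale. With 1 library per group, a gene was called by size alone, at a difference of at least 1 on the log2 scale (2-fold), among the 7857 rows whose linear values averaged 66.5 or more over the 3 libraries. Of the 9 genes 7 passed that minimum. Pfkfb2 lay just above it with a mean of 78.6, and Pfkl (27.8) and Fbp1 (1.60) lay below. In the exercise control 4 of these 7 were called higher and none was called lower. Over all tested rows 2.95% were called higher and 5.33% lower. Pfkfb3 differed by 1.90 ± 0.076 (3.72-fold), the 19th highest difference of the 7857 rows. Fbp2 followed at 1.63 ± 0.12 (3.10-fold, position 33), so the gene of the kinase-rich PFKFB isozyme and that of the opposing bisphosphatase were both high in the same library. Pfkfb1 differed by 1.23 ± 0.12 (2.34-fold) and Pfkp by 1.12 ± 0.20 (2.18-fold). Pfkm lay just under the call at 0.96 ± 0.032 (1.94-fold). It passed the call at 1.01 with each library centred on its median, at 1.01 after quantile normalization and at 1.02 when libraries were rescaled without ribosomal precursor and mitochondrial RNA. These settings also moved the median difference of the tested rows up, from -0.05 to 0.01, 0.02 and 0.02. In the same order 3.6%, 3.55% and 3.73% of tested rows were called higher and 4.58%, 4.48% and 4.45% lower. Pfkfb4 differed by 0.33 ± 0.15 and Pfkfb2 by -0.44 ± 0.24. In the same comparison all 10 slow-fibre markers were called lower (median -3.61) and all 5 tested nerve markers higher (median 1.85), and their part in these values was not tested. In bulk tissue, fewer cells of a type and less RNA per cell cannot be told apart.

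Exercise plus SQH was compared with the exercise control to ask what went with the treatment among exercised animals. Fbp2 was far lower and Pfkfb3 was not. Of the 7 genes, 2 were called lower and none higher, beside 2.33% of all tested rows called lower and 5.68% called higher. After centring, the counts over all rows moved from 446 higher and 183 lower to 354 and 252. Fbp2 differed by -2.24 ± 0.13 (4.73-fold lower), and only 4 of the 7857 rows had a more negative difference. Pfkp differed by -1.13 ± 0.19. Pfkfb1, at -0.91 ± 0.10, lay just outside the call and passed it at -1.01 after centring. Pfkm differed by -0.57 ± 0.028 and Pfkfb4 by -0.28 ± 0.14. Pfkfb2 (0.17 ± 0.24) and Pfkfb3 (0.51 ± 0.046, 1.42-fold) lay above 0. Here all 10 slow-fibre markers were called higher (median 3.31) and all 5 tested nerve markers lower (median -1.79), and their part was not tested. This comparison shares the exercise control library with the one before.

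Exercise plus SQH against the control leaves out the exercise control library. Pfkfb3 was the only gene of the 9 that was called, at 2.41 ± 0.07 (5.30-fold higher), the 11th highest difference of the 7857 rows. Of all tested rows, 1.76% were called higher and 1.26% lower. Rescaling without ribosomal precursor and mitochondrial RNA moved those counts from 138 higher and 99 lower to 168 and 75, while centring gave 116 and 118 and quantile normalization 129 and 112. The difference was -0.61 ± 0.16 for Fbp2 (1.53-fold lower), 0.38 ± 0.031 for Pfkm, 0.32 ± 0.12 for Pfkfb1, 0.05 ± 0.14 for Pfkfb4, -0.27 ± 0.21 for Pfkfb2 and 0.00 ± 0.21 for Pfkp. In these 2 libraries the slow-fibre markers had a median difference of -0.37 with none of 10 called, and the nerve markers one of 0.05 with none of the 5 tested called. All 3 tested adipocyte markers lay higher (median 0.72), with Cfd called at 1.22 ± 0.19, Cidea at 0.72 and Fabp4 at 0.26. Below the minimum Plin1 (1.34) and Cidec (1.01) lay higher and Adipoq was level (0.01). The part of the adipocyte markers in the Pfkfb3 value was not tested. The Pfkfb3 difference, 2.41, was larger here than the 1.90 of the exercise control.

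**Figure D2:**
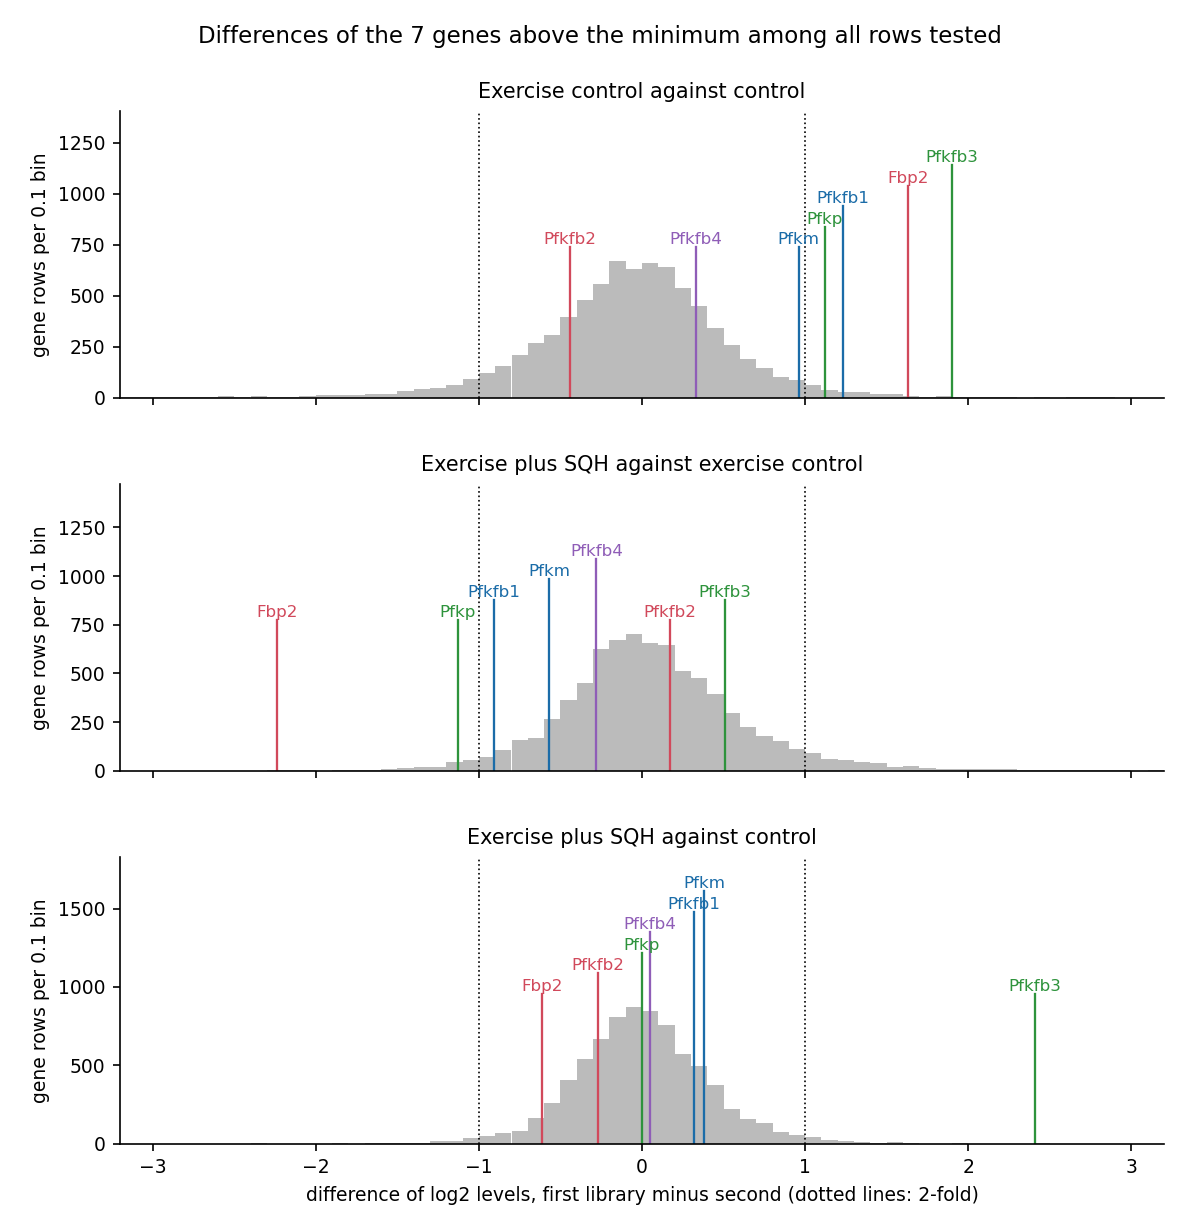
Differences of log2 level (x axis) of all 7857 tested rows as grey bars (rows per bin of 0.1) and of the 7 genes above the minimum as labelled lines, 1 panel per comparison; line heights only separate the labels, and dotted lines mark 2-fold. Pfkfb3 lies beyond 2-fold in both comparisons with the control, and Fbp2 lies beyond it on the right at 1.63 and on the left at -2.24 in the comparisons that hold the exercise control.

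Ratios within a library do not depend on scaling between libraries, but they compare deposited levels of different genes, whose read recovery may differ. The 4 PFKFB genes summed to a linear level of 938, 2500 and 2950 from control to exercise plus SQH, and Pfkfb3 took a growing part of it in that order. Its share was 48.8% in the control (interval 45.8% to 51.9%), 68.2% in the exercise control (66.2% to 70.2%) and 82.2% in exercise plus SQH (81.0% to 83.4%). The 3 intervals did not overlap. Pfkfb1 held 23.4%, 20.6% and 9.28%, Pfkfb4 18.0%, 8.51% and 5.92%, and Pfkfb2 9.80%, 2.71% and 2.58%. For the forward and reverse steps, the linear level of Pfkm was 18.1 times that of Fbp2 in the control, 11.3 times in the exercise control and 35.9 times in exercise plus SQH. On the log2 scale the ratio of Fbp2 to Pfkm was -4.17 ± 0.11, -3.50 ± 0.07 and -5.17 ± 0.12, and these values lie further apart than their counting errors. Pfkm exceeded Pfkfb3 by 7.03 times in the control, 3.67 times in the exercise control and 1.73 times in exercise plus SQH. The ratio of Pfkfb1 to Pfkm varied less, at -3.87 ± 0.10, -3.60 ± 0.07 and -3.94 ± 0.08. The PFKFB shares and the ratios other than Fbp2 to Pfkm were chosen after the values were seen.

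**Figure D3:**
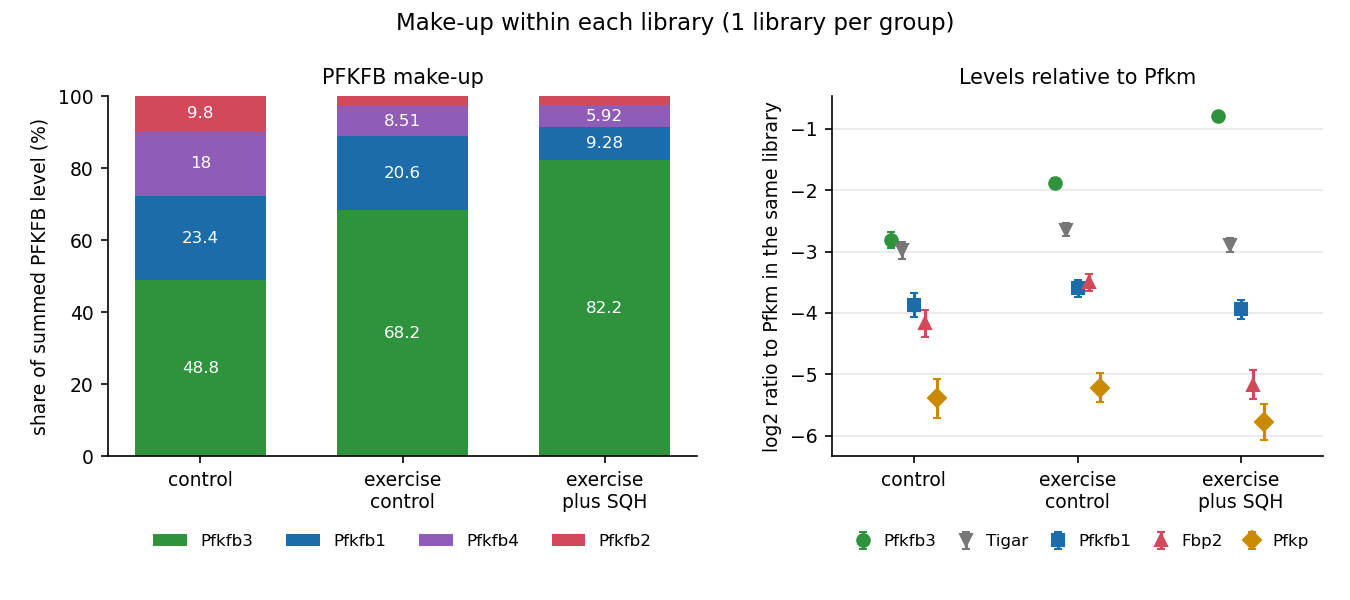
Left, share of each PFKFB gene in the summed linear level of the 4 (y axis, %) in the 3 libraries; right, log2 ratio of 5 genes to Pfkm within each library, with bars for 95% counting intervals. The Pfkfb3 share is 48.8%, 68.2% and 82.2% from left to right, and Fbp2 has its lowest ratio to Pfkm in exercise plus SQH.

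Among the other pathway genes described here and above the minimum, none differed as much as Pfkfb3 or Fbp2 between the exercise control and the control. Of 18 other glycolysis genes 11 passed the minimum, and all 11 lay above the control there. None was called, beside 2.95% of all tested rows called higher and 5.33% lower. The median difference of the 11 was 0.61, against -0.05 over all tested rows. The largest difference of the 11 was that of Bpgm, which encodes bisphosphoglycerate mutase, at 0.92 ± 0.12, with levels of 7.78, 8.70 and 8.04. Aldoa, the muscle aldolase gene whose enzyme splits the product of phosphofructokinase, had levels of 16.26, 17.18 and 16.28. Against the exercise control, 9 of the 11 lay lower in exercise plus SQH (median -0.43). None was called, beside 5.68% of all tested rows called higher and 2.33% lower. Against the control 10 lay higher in exercise plus SQH (median 0.17). None was called there either, beside 1.76% of all tested rows called higher and 1.26% lower. Of 13 genes of adjoining sugar phosphate steps 10 passed. In the exercise control against the control 2 were called higher, beside 2.95% of all tested rows. In exercise plus SQH against the exercise control 1 was called lower, beside 2.33% of all tested rows. Tigar, whose protein has fructose bisphosphatase activity like the phosphatase part of the PFKFB enzymes, stood at 8.68, 9.97 and 9.15 and was higher in the exercise control by 1.29 ± 0.085. Gpd1, which makes glycerol phosphate from a product of the aldolase step, had levels of 10.47, 11.54 and 10.45, higher by 1.07 ± 0.047 in the exercise control and then lower by a difference of -1.10 ± 0.044. Of 8 other gluconeogenesis genes only 3 passed the minimum and none was called in any comparison, beside the same shares of all tested rows. The glucose 6-phosphatase genes G6pc and G6pc2 were listed at 0 in all libraries. Among those 3, Got1, an aspartate aminotransferase gene, had the largest difference, 0.76 ± 0.022 in the exercise control against the control. The hypoxia-responsive genes had medians of -0.19, 0.18 and 0.01 in the 3 comparisons, and none of the 14 tested was called in any of them. In the same order 2.95%, 5.68% and 1.76% of all tested rows were called higher and 5.33%, 2.33% and 1.26% lower. With shares this small, none called among 14 is not a separate result about the list. Among those 14, Ddit4 had the largest difference, at -0.77 ± 0.07 in exercise plus SQH against the control. Below the minimum, where values rest on few reads, Adm, which encodes adrenomedullin, had levels of 2.22, 5.01 and 5.05. The other genes of that list below the minimum did not share this pattern. Slc2a1 had levels of 4.66, 4.71 and 5.50, Ankrd37 3.37, 2.84 and 3.08, and Car9 5.61, 5.10 and 5.38.

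**Figure D4:**
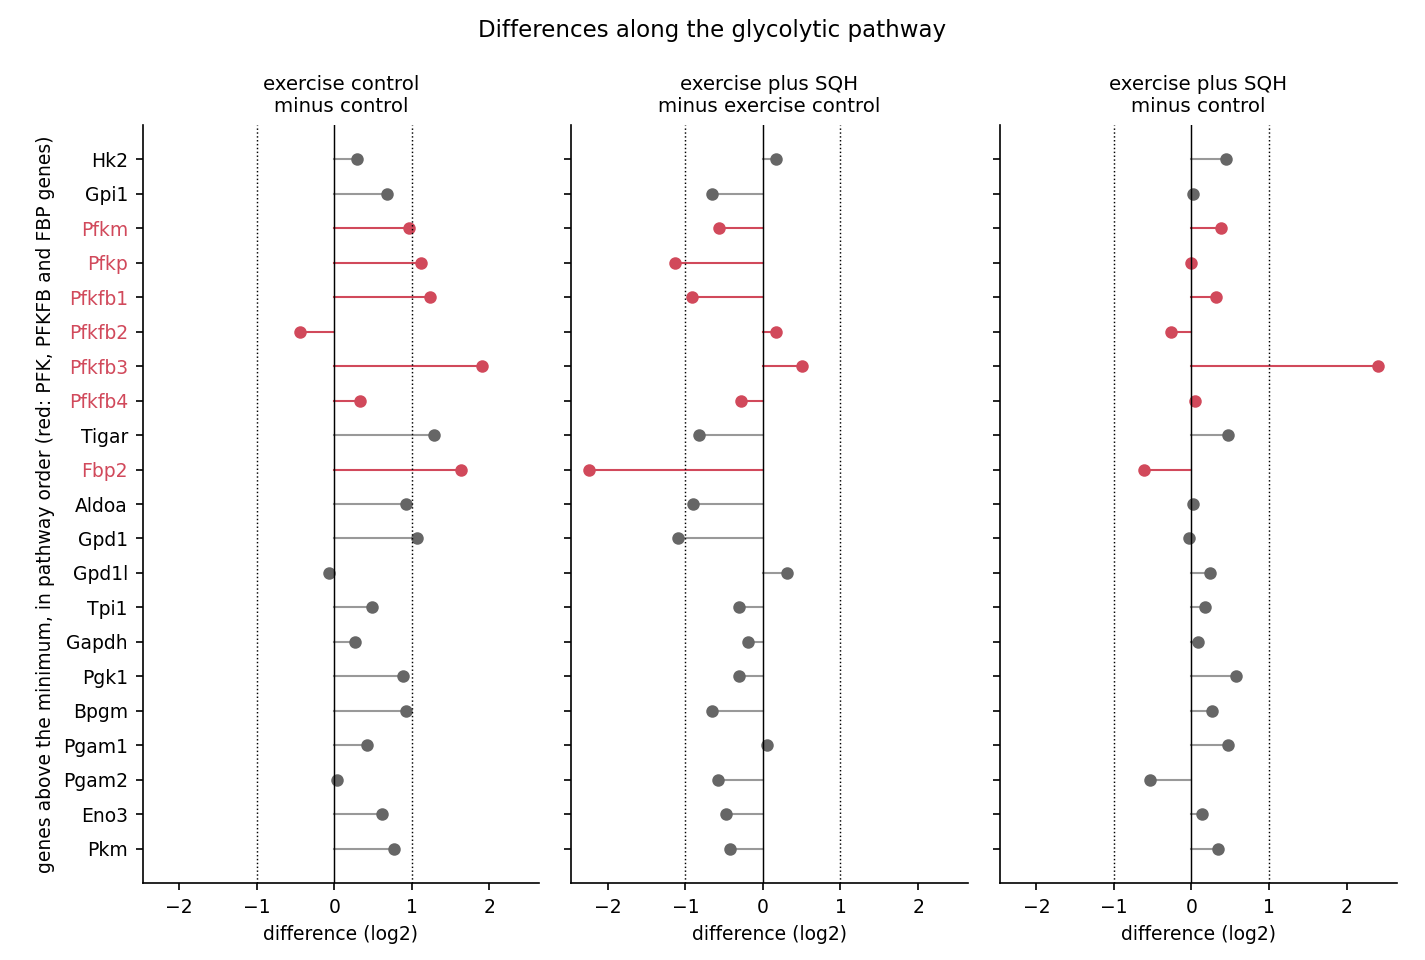
Difference of log2 level (x axis) of the genes above the minimum, listed from hexokinase to pyruvate kinase (y axis), 1 panel per comparison; red marks the PFK, PFKFB and FBP genes and dotted lines mark 2-fold. Most genes lie right of 0 in the exercise control against the control, while only Pfkfb3 passes 2-fold in exercise plus SQH against the control.

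Markers of tissues that carry other isoforms were also read. Liver markers, relevant for Fbp1, Pfkl and Pfkfb1, summed to linear levels of 95.6, 196 and 131 over 8 genes (102, 165 and 171 reads), highest in the exercise control. The only one above the minimum, Serpina1a, had levels of 6.0, 7.03 and 6.54 and was called higher in the exercise control against the control at 1.04 ± 0.22. Serpina1a was the highest of the 8 in every library, and the others rest on few reads. Fgb had levels of 0.90, 4.34 and 1.92, Apoa1 2.91, 4.16 and 2.93, and Alb 3.61, 3.84 and 3.94. Ttr went the other way, at 3.37, 2.26 and 2.78. Tat was at 0 in all 3 libraries, Apoa2 in the control and the exercise control, and Apob in the control. Macrophage and neutrophil markers summed to linear levels of 93.8, 66.7 and 155, and none of the 8 passed the minimum. Erythroid markers differed little in their sums, with linear levels of 10600, 10200 and 9960. In the exercise control against the control 3 of the 4 tested lay below 0, with Alas2 at -0.78 ± 0.24, and none was called. The fast-fibre markers summed to 821000, 1080000 and 690000, with medians of 0.40 in the exercise control against the control and -0.63 in exercise plus SQH against the exercise control. In the latter 3 of 14 were called lower, Myh4 at -1.16, Mybpc2 at -1.12 and Atp2a1 at -1.01, beside 2.33% of all tested rows. There 12 of the 14 lay below 0 and 2 above, Myh1 at 0.15 and Myh2 at 0.01. Against the control 11 of 14 lay lower in exercise plus SQH (median -0.32, none called). Endothelial markers had medians of 0.60, -0.21 and 0.11 in the 3 comparisons and fibroblast markers 0.44, -0.41 and 0.14, with Col1a1 called higher at 1.28 ± 0.043 in the exercise control against the control. Adipocyte markers, of which 3 of 7 passed, had medians of -0.21, 1.25 and 0.72. Cidea was called lower in the exercise control against the control (-1.68 ± 0.32) and, like Cfd (1.25 ± 0.20), higher in exercise plus SQH against the exercise control (2.39 ± 0.30). Lep was at 0 in all libraries. The part of these lists in the values of the 9 genes was not tested.

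The genes with the most similar pattern over the 3 libraries were found by the distance between log2 values, each gene centred on its own mean, among 7524 named rows. Pfkfb3 had few neighbours, with only 3 rows within 0.25. They were Nr4a3, an orphan nuclear receptor gene (distance 0.13, levels 6.02, 8.04 and 8.60), Mustn1, a gene of the musculoskeletal system (0.22, levels 8.45, 10.21 and 11.04), and the transcription factor gene Runx1 (0.23, levels 4.37, 6.49 and 6.69). Fbp2 had 2 rows within 0.25, the metalloprotease gene Adamts20 (0.12, levels 6.14, 7.76 and 5.67) and Cntf, which encodes ciliary neurotrophic factor (0.13, levels 5.74, 7.49 and 5.32). The next was Slc16a3, the lactate exporter MCT4 (0.34, levels 12.57, 13.94 and 12.18). The other patterns were common. Pfkp had 85 rows within 0.25, led by Frat2, Gpd1 and Pllp, Pfkfb1 had 103, led by Prkca, Letmd1 and Kcnc4, and Pfkm had 265, led by Wdr83os, Fntb and Ptp4a3. Pfkfb2 had 1447 (Myo9a, Ascc1 and Usp10 the closest) and Pfkfb4 1654 (Ier3, Nadk2 and Myl6). Fewer rows lie at large differences, so few neighbours go with the size of a gene's differences and are not a separate result. The distances carry no counting error. Runx1, at 4.37 in the control, lay there under Pfkl, which had 4.66 and about 27 reads. With 3 libraries such likeness is a description.

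Because reads come from 3' ends, the gene models bear on what each value holds. In GENCODE M21 for GRCm38, Pfkfb3 (ENSMUSG00000026773.19) lies on the minus strand of chromosome 2 from 11471433 to 11554077 and has 12 coding transcripts with 8 distinct 3' ends over 6534 bases, which the deposited value does not separate. Fbp2 (ENSMUSG00000021456.8, chromosome 13, 62836877 to 62858422, minus strand) and its neighbour Fbp1 (ENSMUSG00000069805.10, 62864753 to 62888282, minus strand) lie 6330 bases apart. Fbp2 has 1 annotated coding 3' end. Pfkfb1 (ENSMUSG00000025271.13) lies on chromosome X from 150588229 to 150643878, plus strand, and Pfkm (ENSMUSG00000033065.14) on chromosome 15 from 98092589 to 98132451, plus strand. No 31-base word of the last 500 bases of the coding transcripts of Fbp1, Fbp2, Pfkfb1, Pfkfb3, Pfkfb4 or Pfkl occurs in a transcript of another gene, on either strand. For Pfkm 2.53% of such words and for Pfkfb2 4.0% were shared, most with gene models that have no row in the files (Gm26513 and Gm29427). Pfkp (ENSMUSG00000021196.14, chromosome 13, 6579768 to 6648777, minus strand) is different. Its 3' end overlaps that of Pitrm1, a mitochondrial peptidase gene on the other strand, by 748 exonic bases, and 27.7% of its 3' words also occur in Pitrm1. Whether reads were counted by strand is not stated, so reads of the 2 genes may not be separated. Pitrm1 had levels of 7.56, 7.54 and 6.86, and differed by -0.02 ± 0.15 where Pfkp differed by 1.12 and by -0.68 ± 0.16 where Pfkp differed by -1.13. Without Pfkp, 3 genes were called in the exercise control against the control, all higher. Of all tested rows 2.95% were called higher there and 5.33% lower. In exercise plus SQH against the exercise control 1 was called, lower, beside 2.33% of all tested rows called lower and 5.68% higher.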

How the data were processed

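RNA was extracted with Trizol and made into Lexogen QuantSeq 3' libraries from 500 ng, per the labels' protocols. Bowtie2, edgeR and mm10 appear in the submitters' processing notes, without versions or roles; the counter, annotation and strand setting are not stated there. Per the file headers each deposited table holds 1 library, as log2 values per gene symbol. The step of each library (0.939 for the control, 1.188 for the exercise control, 0.766 for exercise plus SQH) was the spacing of linear values up to 9; 100.0%, 95.7% and 84.4% of these lay within 0.2 step of a whole multiple, so reads are approximate and no count model was fitted. Dividing a linear value by the step gave reads.

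The 9 genes, the gene lists, the call rule and the alternatives were chosen with earlier results of these data known. From each pathway list the called genes (up to 6) were named, or else the gene with the largest difference. A gene of the glycolysis list is not reported here and is left out of its counts. Aldoa, Gapdh, Pitrm1, Eno1, G6pc, G6pc2, the hypoxia-responsive genes below the minimum and the marker genes were named after their values were seen. The list medians are over genes passing the minimum. The code for the steps and calls was tested on simulated data. Python 3.11.15, numpy 2.4.6, pandas 2.3.3 and scipy 1.17.1 were used.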

Additional observations from a re-analysis of the deposited data

How the results depend on the processing

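No setting reversed a called difference, and the 24 differences of the genes with reads in both libraries moved by at most 0.18 on the log2 scale under centring, quantile normalization, rescaling without ribosomal precursor and mitochondrial RNA, or 8 added before the logarithm. Of those 96 values, 93 kept their sign, and the other 3 belong to Pfkp in exercise plus SQH against the control, at 0.00 as deposited. The count of called genes in the exercise control against the control was 4 as deposited. It was 2 (Pfkfb3 and Fbp2) when a call needed 1.5 on the log2 scale, beside 0.7% of tested rows called higher and 1.79% lower. It was 3 at 4 times the expression minimum, beside 1.91% and 4.02%. With no minimum it was 5, beside 11.7% and 15.4%, with Fbp1 added on about 4 reads. In exercise plus SQH against the exercise control it was 2, and 3 with no minimum, again with Fbp1 (16.3% of tested rows higher and 10.4% lower). It was 1 (Fbp2) at a call of 1.5, at 4 times the expression minimum, or without Pfkp, an alternative chosen after seeing the data. In that order 0.382%, 1.33% and 2.33% of tested rows were called lower, and 1.97%, 4.22% and 5.68% higher. In exercise plus SQH against the control it was 1, and 2 (Pfkfb3 and Fbp2) when a call needed 0.58. At 0.58 there, 7.56% of tested rows were called higher and 6.53% lower. With no minimum 15714 rows were tested in place of 7857. Of these, 4259 were called in the exercise control against the control, 4196 in exercise plus SQH against it and 3367 against the control. As deposited and with the minimum the totals were 651, 629 and 237. In the same order the totals were 236, 221 and 59 of 3980 tested rows at 4 times the minimum. Of 7857 tested rows, 196, 185 and 55 were called at 1.5, and 2028, 1908 and 1107 at 0.58. Adding 8 kept the Pfkm share and the ratio of Fbp2 to Pfkm within counting error. Leaving out a replicate was not possible with 1 library per group. No paired analysis was possible because each group has 1 library. Depth limits Pfkl, with 25 to 37 reads, and Fbp1, with at most 4.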
